A study of Mus musculus with 468 samples.

Results

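The genes described here mark the subtypes of adipocyte progenitors, the stromal cells of fat that can become fat cells. They are 10 of the 23180 genes in the tables, picked by symbol: Pdgfra, Pdgfrb, Cd34 and Ly6a, which progenitors share, Dpp4, Pi16, Cd55 and Anxa3 of the interstitial subtype, Icam1 of the committed subtype, and F3 of the regulatory subtype. All 10 passed the filter on low counts, as did 18380 genes in all. RNA was sequenced from the visceral adipose tissue (gonadal fat pad) of Diversity Outbred mice, an outbred stock that mixes the genomes of inbred founder strains. Every mouse ate a high-fat, high-sugar diet, labelled as 45 percent fat, and gave 1 library, so the spread between libraries joins animals and assay. The labels hold no sex, age, genotype or batch, and the libraries form 1 group with no control. Counts from 4 Y-linked genes split the libraries into 48.5% without and 51.5% with such counts, and this split stood in for the sex term of the study's models.

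Adipocyte progenitors lie in the stroma around fat cells and carry receptors for platelet-derived growth factor, PDGFRα and PDGFRβ, together with the surface proteins CD34 and SCA-1 (Ly6a). Cells with DPP4 and PI16 sit in the connective tissue between fat lobules and are held to be the least committed, while cells with ICAM1 are closer to fat cells and cells with CD142, the product of F3, can restrain the fat cell formation of others. These subtypes were defined on sorted or single cells. In whole tissue, as here, fewer cells of a type and less RNA per cell cannot be told apart.

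The starts of 5 of these genes are shown. Cd34 and Cd55 had the highest r of any pair of members below, before the level of general stroma genes was removed, and Dpp4, Icam1 and F3 are compared there. Each sequence is the 250 bases before the RefSeq start on GRCm38.p6, 5′ to 3′ on the gene's strand, with matches to 7 motifs in capitals. They lie at chr1:194938571-194938820 (plus strand) for Cd34, chr1:130462745-130462994 (minus) for Cd55, chr2:62412232-62412481 (minus) for Dpp4, chr9:21015690-21015939 (plus) for Icam1 and chr3:121723287-121723536 (plus) for F3.
Cd34: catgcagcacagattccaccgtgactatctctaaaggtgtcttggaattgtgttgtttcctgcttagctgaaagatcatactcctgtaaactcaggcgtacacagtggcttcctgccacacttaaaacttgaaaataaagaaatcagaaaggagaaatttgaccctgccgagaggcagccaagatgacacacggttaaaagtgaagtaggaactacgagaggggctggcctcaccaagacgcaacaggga
Cd55: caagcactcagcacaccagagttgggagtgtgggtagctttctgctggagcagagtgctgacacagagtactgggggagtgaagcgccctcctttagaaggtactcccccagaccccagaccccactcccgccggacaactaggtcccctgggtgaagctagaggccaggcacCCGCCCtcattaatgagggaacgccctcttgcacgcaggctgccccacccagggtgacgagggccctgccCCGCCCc
Dpp4: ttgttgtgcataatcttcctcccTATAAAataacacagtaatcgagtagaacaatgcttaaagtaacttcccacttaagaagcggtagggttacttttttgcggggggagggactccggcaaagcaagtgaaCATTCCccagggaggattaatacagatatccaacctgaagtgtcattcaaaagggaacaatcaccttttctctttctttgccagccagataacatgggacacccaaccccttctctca
Icam1: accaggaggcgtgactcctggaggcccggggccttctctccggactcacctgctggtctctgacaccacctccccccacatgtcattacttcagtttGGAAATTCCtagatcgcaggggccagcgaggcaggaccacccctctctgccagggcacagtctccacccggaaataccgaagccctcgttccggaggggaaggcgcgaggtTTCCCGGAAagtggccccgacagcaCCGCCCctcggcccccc
F3: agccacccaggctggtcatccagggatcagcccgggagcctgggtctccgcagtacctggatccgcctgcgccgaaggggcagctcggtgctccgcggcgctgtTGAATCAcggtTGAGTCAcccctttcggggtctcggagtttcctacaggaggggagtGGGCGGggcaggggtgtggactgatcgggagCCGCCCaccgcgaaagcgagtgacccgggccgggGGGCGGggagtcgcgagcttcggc
The motifs, searched on both strands, were the TATA box TATAAA, the GC box GGGCGG, the CCAAT box CCAAT, the NF-kB motif GGAAATTCC, the AP-1 motif TGANTCA, the GAS element of STAT factors TTCNNNGAA and the TEAD motif GGAATG. The Icam1 window held 1 NF-kB match, which 0.286% of the 32851 RefSeq windows of this length had, and 1 GAS match, which 7.02% had. The F3 window held 2 AP-1 matches (6.75% of windows had any) and 3 GC boxes (32.7%). The Dpp4 window held 1 TATA match (12.4%) far from the start and 1 TEAD match (12.6%). The Cd55 window held 2 GC boxes and the Cd34 window none of the 7 motifs, so the pair of genes with the highest correlation shared no match. These letters are descriptions of the windows and not sites known to be bound. Windows of Pdgfra and Pi16 were also searched: Pdgfra held no match and Pi16 held 1 CCAAT box (33.8%). Pdgfrb, Ly6a and Anxa3 are named only.

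All 10 genes were measured in every library, with none at 0. Cd34, a sialomucin also found on endothelial cells, had a median of 141.6 CPM (counts scaled to the same library total, adjusted by TMM factors), its lowest library lying at 66.3 CPM and its highest at 348.96 CPM. Pdgfra, the receptor that defines these progenitors, ranged from 50.6 to 285.7 CPM around a median of 116.1 CPM, and Pdgfrb, which mural cells of vessels also carry, from 46.4 to 248.97 CPM around 99.97 CPM. Ly6a had a lowest, median and highest value of 32.6, 78.3 and 213.04 CPM. The shared markers thus varied about as much as one another, with SDs of 0.35 to 0.44 on the log2 CPM scale.

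Among the interstitial markers, Cd55, which shields cells from complement, ranged from 28.7 to 170 CPM (median 63.2 CPM). Anxa3, an annexin that binds membrane lipids, ranged from 17.4 to 153.1 CPM (median 59.8 CPM). Pi16, a secreted protein of fibroblasts, ranged from 17.3 to 215.1 CPM (median 57.3 CPM), and its highest library, from mouse DO531, stood above the next one at 143.2 CPM. Dpp4, a cell surface peptidase, ranged from 13.4 to 145.7 CPM (median 40.1 CPM). Its highest library, from mouse DO283, stood far above the next one at 98.95 CPM and is treated separately below. Icam1, the adhesion protein that leukocytes bind, was the least abundant, from 9.12 to 41.2 CPM (median 17.2 CPM). F3, the cell surface starter of blood clotting, ranged from 7.76 to 93.99 CPM (median 26.3 CPM) and had the largest SD of the 10, 0.53 on the log2 scale. Over all genes the median SD was 0.46, so none of the 10 was unusually variable: they lay between the 38.9th percentile of genes (Cd34) and the 56.5th (F3).

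On GRCm38 the genes lie at chr5:75152292-75198215 (Pdgfra), chr18:61045150-61085061 (Pdgfrb), chr1:194938819-194961279 (Cd34), chr15:74994877-74998031 (Ly6a), chr2:62330073-62412231 (Dpp4), chr17:29317680-29330593 (Pi16), chr1:130439027-130462744 (Cd55), chr5:96793339-96845966 (Anxa3), chr9:21015985-21028817 (Icam1) and chr3:121723537-121735048 (F3). Per kilobase of the longest annotated transcript, the median levels ran from Ly6a (82.02 CPM per kb) over Cd34 (55.5), Anxa3 (37.5), Cd55 (24.95), Pdgfrb (18.4), Pdgfra (16.99), Pi16 (14.34) and F3 (14.04) to Dpp4 (7.62) and Icam1 (6.78). The neighbours in this order from Pdgfrb down to F3, and the pair of Dpp4 and Icam1, lay closer together than the SD of either gene over libraries. Ly6a has close relatives such as Ly6c1, and Cd55 has Cd55b, so that reads shared with them make these levels uncertain. Annotated antisense or unclassified transcripts overlap all of the genes other than Pdgfrb, Ly6a and F3, and whether the counting used strand is not stated in the sources used here.

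The libraries without and with Y-linked counts differed in the level of some members, which is given as a description because the split was made from the data. Median Pdgfrb was 83.4 CPM in the former and 115.5 CPM in the latter, median Anxa3 48.9 and 72.8 CPM, and median F3 21.1 and 30.6 CPM. The split held 30.2%, 31.5% and 27.9% of the variance of these 3 genes and 9.43% or less of the variance of each other member. Pdgfra went the other way, with medians of 132.1 and 107.2 CPM. The distributions of all 10 genes overlapped between the 2 sets of libraries. All relations below were therefore taken after the means of the 2 sets had been removed.

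**Figure D1:**
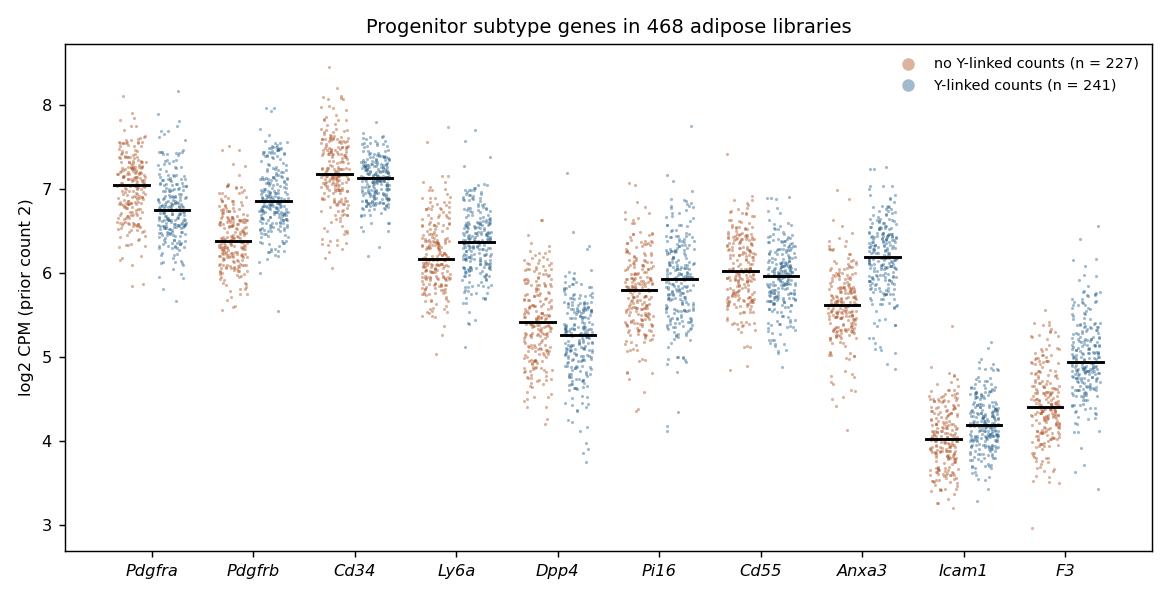
Level of each gene in every library, as log2 CPM with a prior count of 2, with libraries without Y-linked counts left and with them right. Points are libraries and black bars are medians. Pdgfrb, Anxa3 and F3 sat higher in the libraries with Y-linked counts and Pdgfra lower, with overlap in every gene.

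The 10 adipocyte marker genes together reached 5849 CPM or more in every library and Adipoq 499.6 CPM or more, which is what the tissue label says. Some of these genes fell lower, such as Lep (0.717 CPM) and Cfd (35.8 CPM). Total counts ran from 35298813 to 137760410 per library. The library of mouse DO283 spent 19.7% of its counts on Svs5, a secretory gene of the seminal vesicle, against a median of 2.28e-06%, and the libraries of DO405 and DO360 spent 28.4% and 19.2% on the ribosomal gene CT010467.1 against a median of 1.82%. No pair of libraries correlated above 0.781 across genes, so none was a copy of another.

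Most pairs of members were positively correlated, within and across the subtypes. Of the 45 pairs, 34 were called in both directions, all with a positive slope (limma with 1 member as covariate, adjusted p under 0.05 over all genes tested). The share of all genes called was 73.5% with Pdgfrb as covariate, 63.7% with Cd34, 63.1% with Icam1, 59.9% with Cd55, 59.6% with Anxa3, 57.5% with Pdgfra, 55.7% with Ly6a, 51.8% with Dpp4, 12.1% with Pi16 and 5.07% with F3. A call alone thus says little for most members and more for Pi16 and F3. The size of r says more: the median over the 45 pairs was 0.232, against a median of -0.00493 for the members' correlations with all other genes.

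Cd34 and Cd55 had the highest correlation of any pair (Pearson r = 0.535, Spearman rho = 0.51, limma adjusted p = 5.39e-34). Anxa3 with Cd55 followed at r = 0.512 and Cd34 with Pdgfra at r = 0.507. The next pairs joined Icam1, the marker of committed cells, to the receptors: r was 0.471 with Pdgfrb and 0.465 with Pdgfra. At the other end, Dpp4 with Pdgfrb (r = -0.0604, adjusted p = 0.274) and Dpp4 with F3 (r = -0.0581, adjusted p = 0.294) were not called. The order of the pairs depended on the level of general stroma genes. With the score of those genes removed as well, Cd34 with Cd55 had r = 0.259, below Anxa3 with Cd55 (0.37) and Cd34 with Dpp4 (0.362).

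Grouped by subtype, the median r was 0.41 over the 6 pairs of shared markers and 0.279 over the 6 pairs of interstitial markers. Icam1 lay closer to the shared markers (median r = 0.455, 4 pairs) than to the interstitial ones (median r = 0.183, 4 pairs). Its correlations with the first ran from 0.329 to 0.471 and with the second from 0.109 to 0.201. These ranges met in the libraries lacking Y-linked counts, where r was 0.388 with Cd34 and 0.401 with Cd55. With the stroma score removed they crossed, at 0.000356 with Cd34 and 0.0644 with Dpp4. F3 lay apart from both, with a median r of 0.098 to the shared and 0.0561 to the interstitial markers, and its one relation called in both directions was with Icam1 (r = 0.224, adjusted p = 1.98e-04). Whether these medians differ was not tested.

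Fewer pairs were called in the libraries with Y-linked counts, 22 of the 45, than in those without, where 35 were. Cd34 with Cd55 had r = 0.664 without and 0.34 with Y-linked counts, and Cd34 with Dpp4 had 0.522 and 0.0618. Dpp4 with Pdgfrb changed sign, from 0.244 to -0.337, and the 1 negative call in the libraries with Y-linked counts was this pair. Differences between the 2 sets were not tested for pairs. With the score of general stroma genes removed as well, 22 pairs were called, 18 positive and 4 negative. The share of all genes called in the fits of this paragraph is not given here. These counts are therefore not read as particular to the members.

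**Figure D2:**
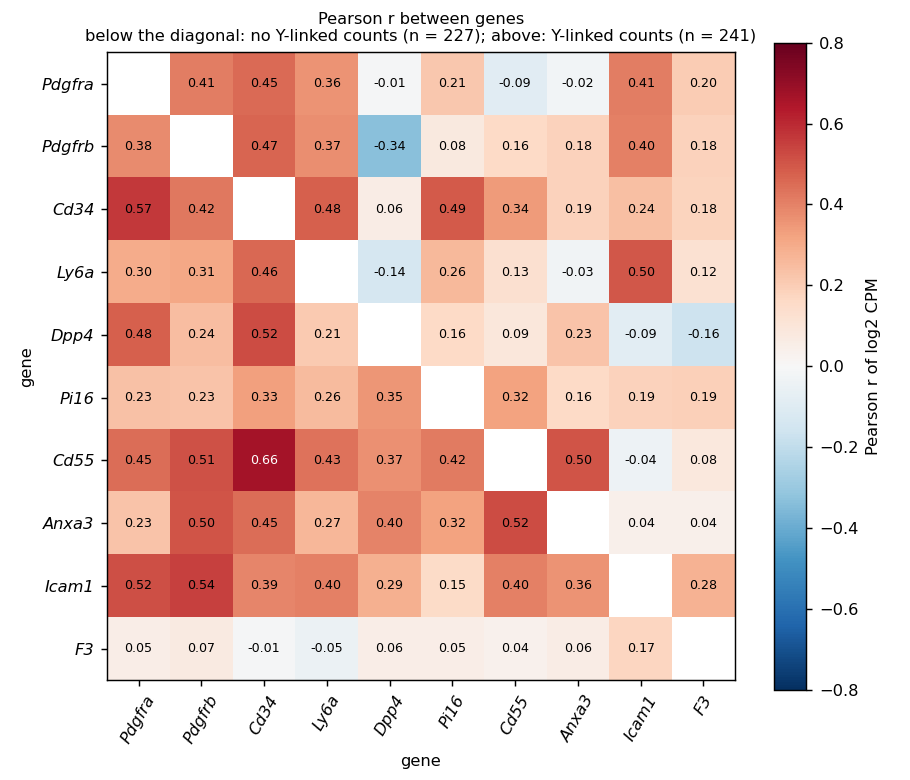
Pearson r of log2 CPM for each pair of genes, below the diagonal in the libraries that lack Y-linked counts and above it in those that have them, coloured from blue (negative) to red (positive). Cd34 with Cd55 is at 0.66 below and 0.34 above the diagonal, and the values of F3 run from -0.163 to 0.278.

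The genes whose levels followed each member most closely differed from member to member. For each, the 3 genes with the highest r and the gene with the lowest r among genes averaging 1 CPM or more are given, as a description over all libraries, other than the lowest of Pdgfrb. Pdgfra was followed by Antxr1 (r = 0.708), a collagen receptor, by Frmd6 (0.672) and by Mmp14 (0.672), a membrane protease that cuts collagen, and least by Nap1l4 (-0.528). Cd34 was followed by Thbs3 (0.758), B3gnt9 (0.749) and the receptor kinase Axl (0.738), with Slc30a9 lowest at -0.569. For Pi16 the nearest were Gfpt2 (0.537), Cadm3 (0.535) and Tmem100 (0.506), with Srpk1 lowest at -0.282. The nearest genes of Pi16 were thus farther from it than those of the other 2.

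Pdgfrb had the closest companions of all, Ehd4 (r = 0.822), the small GTPase Rab31 (0.808) and Cd93 (0.785), a receptor of endothelial and myeloid cells. It correlated above 0.5 with 1278 genes, or 6.95% of those tested, against 1.32% for Cd34 and 3 genes for Pi16. Ly6a was followed by Ifitm3 (0.752), Stat2 (0.657) and Zbp1 (0.644), each known for its part in the interferon response, with Tfdp2 lowest at -0.524. Ly6a with Ifitm3 was at 0.741 where Y-linked counts were lacking and at 0.772 where they were present.

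Cd55 was followed by Gm15675 (r = 0.728) and Gm15674 (0.675), gene models that lie within 2 kb of it, and by the fibrillin gene Fbn1 (0.71) on another chromosome, with Dnajc7 lowest at -0.537. Anxa3 was followed by the myosin light chain Myl12a (0.686), the tropomyosin Tpm4 (0.671) and Kirrel (0.658), while Tst was lowest at -0.613. Icam1 was followed by Trim47 (0.641), the transcription factor Elf4 (0.635) and Tmem173 (0.634), which encodes the innate immune adaptor STING, with Prkaa2, a subunit of the energy sensor AMPK, lowest at -0.593. F3 had no close companion: its highest were Lrrc32 (0.406), Ier5 (0.395) and A730020M07Rik (0.358), its lowest was Syde2 (-0.344), and 0 genes passed 0.5.

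The nearest genes of Dpp4 were Gpm6a (r = 0.698), Upk3b (0.696), a marker of mesothelium, the cell layer that covers visceral fat, and Ptpn13 (0.694), with Vdac3 lowest at -0.51. Each member was also set against lists of marker genes. A list score was the mean z-score of the list's genes, members left out, and the score was fitted against every gene.

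Dpp4 with the mesothelial score reached r = 0.763 (limma adjusted p = 2.14e-87), the highest value of any member with any of the 11 lists. All 8 mesothelial genes correlated with Dpp4 positively, from Krt18 (0.433) to Upk3b (0.696), and r was 0.754 where Y-linked counts were lacking and 0.771 where they were present. With the interstitial list, which marks the cells Dpp4 is named for, r was 0.373, and it differed between the sets, at 0.543 where Y-linked counts were lacking and 0.161 where they were present. The other interstitial markers had the reverse order: Pi16 stood at 0.514 with the interstitial and 0.109 with the mesothelial score, Cd55 at 0.718 and 0.116, and Anxa3 at 0.532 and 0.295. Whether these correlations differ from each other was not tested. The summed level of the 8 mesothelial genes had a median of 216.6 CPM, its lowest library lying at 73.5 CPM and its highest at 684.3 CPM, and none of the 8 was at 0 in any library.

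Epithelial genes also moved with Dpp4, 6 of 6 positively (score r = 0.345, adjusted p = 1.35e-13), led by Krt7 (0.64), a keratin that mesothelium shares. The summed level of the list, with Elf3, which did not pass the filter and is not in the score, had a median of 11.6 CPM but reached 398.6 CPM in the library of mouse DO283, and Epcam, Cdh1, Cldn3, Cldn7 and Spint1 were at 0 in some libraries. Their part in the level of Dpp4 was not tested.

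Over the 110 relations of 10 members with 11 lists, 70 were called, to be read against the share of all genes called with each score. That share was 74.5% with the macrophage, 73.1% with the stroma, 71.1% with the adipocyte and 70.3% with the committed score. It was 65.8% with the interstitial, 61.8% with the regulatory, 56.2% with the epithelial and 54.1% with the mesothelial score, and 48.1%, 47.9% and 43.7% with the endothelial, mural and T cell scores. A call was thus common for any gene. The stroma list of collagens and other stromal genes (Gsn and Col3a1 the most abundant) correlated with Pdgfrb at 0.709 and with Cd34 at 0.699 but with Dpp4 at 0.111 and with F3 at 0.137. The value of Dpp4 joined opposite signs, 0.418 where Y-linked counts were lacking and -0.242 where they were present. The interstitial list (Fbn1 and Sema3c the most abundant) was nearest to Cd34 (0.743) and Cd55 (0.718). The committed list holds genes that fat cells also make, such as Fabp4 and Lpl. It was nearest to Pdgfrb (0.45) and was not called with Icam1 (-0.00948, limma adjusted p = 0.864), the marker of that subtype. Icam1 correlated with Ggt5 of this list at 0.348 and with Pparg at -0.371. The regulatory list (Fmo2 and Abcg1 the most abundant) was likewise not called with F3 (0.0659, limma adjusted p = 0.209) and was nearest to Cd34 (0.336). For the committed and regulatory subtypes, then, other members lay closer to the list score than the subtype's own surface marker did. Both scores joined genes of opposite sign. Pdgfrb was positive with 5 of the 9 committed genes, from Fabp4 (-0.344) to Col4a2 (0.691). Cd34 was positive with 5 of the 7 regulatory genes, from Inmt (-0.121) to Clec11a (0.569).

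Lists of other cell types moved with some members. The macrophage list (Lyz2 and Csf1r the most abundant) correlated with Pdgfrb at 0.707, with Pdgfra at 0.543 and with Icam1 at 0.503, and 9 or 10 of its 10 genes were positive with each. The T cell list was highest with Icam1 (0.381, 8 of 8 genes positive) and Ly6a (0.297). The mural list (Rgs5 and Mcam) was highest with Pdgfrb at 0.339, with 0.609 where Y-linked counts were lacking and 0.139 where they were present, and was at -0.173 with Pdgfra. Its summed level ranged from 697.9 to 8670 CPM. The endothelial list (Ptprb and Cdh5) was highest with Anxa3 (0.264) and at 0.0444 with Cd34 (adjusted p = 0.449), although endothelial cells carry CD34. That value joined opposite signs: 7 of the 10 endothelial genes were positive with Cd34, from Flt1 (-0.409) to Vwf (0.399). The adipocyte list (Plin4 and Cidec) was negative with Pdgfrb (-0.438), Pdgfra (-0.383) and Icam1 (-0.324). With Pdgfrb, 2 of its 10 genes were positive, and its genes ran from Cfd (-0.651) to Lep (0.602). What share of each relation comes from cells of these other types was not tested.

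**Figure D3:**
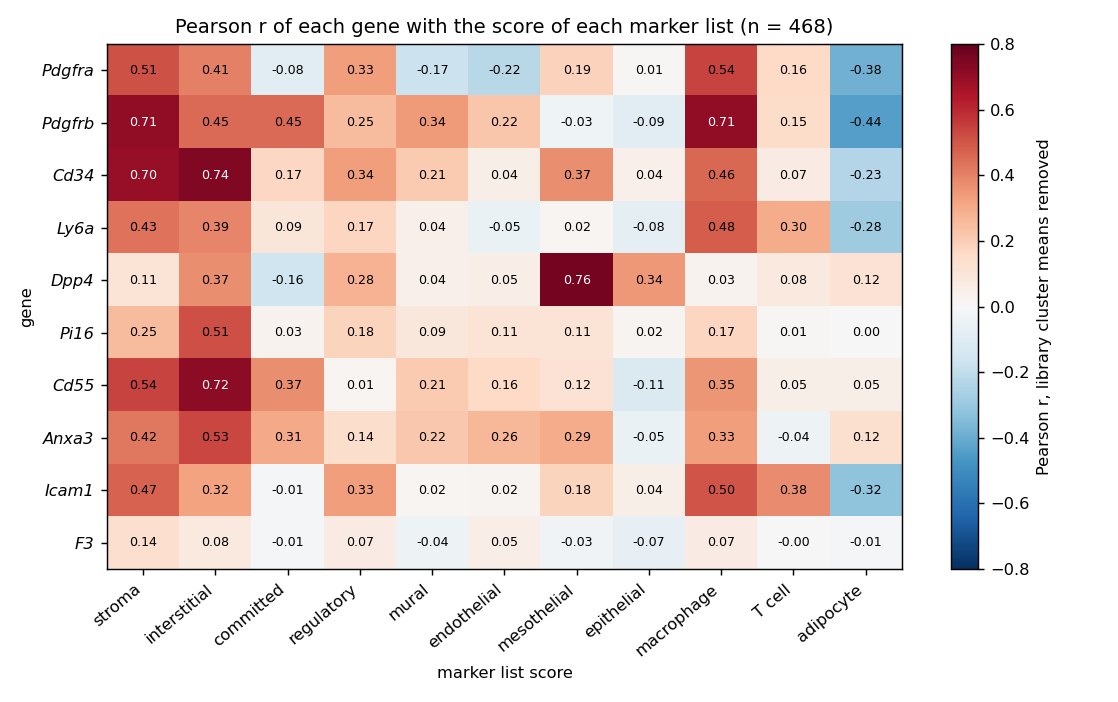
Pearson r of each gene with the score of each of 11 marker lists over all libraries, means of the 2 library sets removed. Dpp4 with the mesothelial list stands out at 0.76, Cd34 and Cd55 are darkest with the interstitial list, and F3 stays between -0.0675 and 0.137.

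Most members were higher in libraries with more Adgre1, the gene of the macrophage protein F4/80. Of the 10, 8 had a positive slope, 1 a negative slope and 1 was not called (edgeR quasi-likelihood test, adjusted over all genes), where 76.9% of all genes were called, 31.7% with a positive and 45.2% with a negative slope. The median slope of the members was 0.138 log2 units per doubling of Adgre1, against -0.0268 over all genes. Adgre1 itself had a median of 47.5 CPM and extremes of 10.7 and 655.97 CPM. With counts scaled by total count alone, the split of all genes moved to 55.7% positive and 20.8% negative.

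Pdgfrb had the steepest slope, 0.322 ± 0.0156 log2 units per doubling of Adgre1 (SE, edgeR adjusted p = 2.45e-66). Its correlation was r = 0.679 (95% interval 0.627 to 0.725, rho = 0.681, permutation p = 1e-05 for both, the smallest these 100000 permutations can give), and 0.692 without the 2 libraries farthest from the median of Adgre1. Pdgfra had a slope of 0.232 ± 0.0192 (r = 0.475), Ly6a of 0.23 ± 0.0209 (r = 0.443) and Icam1 of 0.206 ± 0.0164 (r = 0.495). The difference between the r of Pdgfra and Pdgfrb was -0.204 (permutation p = 5e-05). Both receptors were thus higher where Adgre1 was higher, and the β receptor more closely.

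Cd34 (0.144 ± 0.019), Cd55 (0.133 ± 0.023) and Anxa3 (0.105 ± 0.0249) had shallower slopes, with r from 0.223 to 0.338. For F3 the slope was 0.0819 ± 0.0258 (edgeR adjusted p = 0.00247) and r was 0.122 (permutation p = 0.00881), within 5 blocks of consecutive library numbers from -0.0787 to 0.327. Pi16 was not called (0.0535 ± 0.0281, edgeR adjusted p = 0.0728; r = 0.0803, 95% interval -0.0105 to 0.17, permutation p = 0.0875).

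Dpp4 had a negative slope, -0.0595 ± 0.0279 (edgeR adjusted p = 0.0437), while r was -0.0749 (permutation p = 0.104). The call rested on the library of mouse DO283: without it the slope was -0.0314 ± 0.028 (adjusted p = 0.301). With the mesothelial score as a covariate the slope was -0.0036 ± 0.018 (adjusted p = 0.862), and scaling by total count alone gave 0.0553 (adjusted p = 0.0725). Between Dpp4 and Icam1, named as markers of the interstitial and the committed subtype, the difference in r was -0.57 (permutation p = 1e-05). F3 lay between them, -0.373 below Icam1 (p = 1e-05) while Dpp4 was -0.197 below F3 (permutation p = 0.00421). These are differences between genes and are not read as differences between subtypes. Icam1 had r = -0.00948 with the committed list. Dpp4 was nearer to the mesothelial list (0.763) than to the interstitial list (0.373). Dpp4 also lay below Pi16, its fellow interstitial marker, by -0.155 (permutation p = 0.00783). Both orders held in the libraries with Y-linked counts, where r with Adgre1 was -0.3 for Dpp4, 0.197 for F3 and 0.0594 for Pi16. They were turned in the libraries without, where r was 0.249, 0.00713 and 0.116. The tests of differences in r were not repeated without the library of mouse DO283.

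These slopes ran together with the amount of stroma RNA. The stroma score correlated with Adgre1 at 0.663, and 8 of its 9 genes had a positive slope on Adgre1 and 1 a negative slope, with a median slope of 0.539. With that score as a covariate, Pdgfrb (0.18 ± 0.0189), Ly6a (0.166 ± 0.0276), Icam1 (0.144 ± 0.0207) and Pdgfra (0.123 ± 0.0246) kept positive calls, where 59.1% of all genes were called. Cd34 (-0.0928 ± 0.0183), Pi16 (-0.0943 ± 0.0367), Cd55 (-0.0759 ± 0.026) and Dpp4 (-0.148 ± 0.035) were then called with negative slopes. Beside the level of general stroma genes, then, libraries with more Adgre1 had more of the receptors, Ly6a and Icam1 and less Cd34, Pi16, Cd55 and Dpp4. Over all genes, 26.3% were called with a positive and 32.9% with a negative slope in this fit, so either direction was common. Anxa3 (-0.0541 ± 0.03, edgeR adjusted p = 0.109) and F3 (0.0391 ± 0.0352, adjusted p = 0.345) were not called beside that score.

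The members related to Lep, the leptin gene of fat cells, were fewer, and all of them were also called with a positive slope on Adgre1. Lep had a median of 1128 CPM and extremes of 0.717 and 5418 CPM. Of the 10 members, 5 were called, all with positive slopes (edgeR), where 76% of all genes were called, 33.6% positive and 42.3% negative (48.2% and 26.2% when scaled by total count alone). The median slope was 0.0344 against -0.0107 over all genes.

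Pdgfrb again had the steepest slope, 0.142 ± 0.00894 log2 units per doubling of Lep (edgeR adjusted p = 1.99e-44, r = 0.602, rho = 0.647, permutation p = 1e-05 for both). Anxa3 followed at 0.129 ± 0.0117 (r = 0.473) and Cd55 at 0.103 ± 0.0111 (r = 0.399). Cd34 (0.0517 ± 0.0104, r = 0.259) and Ly6a (0.0413 ± 0.0124, r = 0.171) were shallower. With the stroma score as a covariate the slopes of these 2 turned, to -0.0568 and -0.0398 (edgeR adjusted p = 1.97e-09 and 0.0102), while those of Pdgfrb (0.0651), Anxa3 (0.0964) and Cd55 (0.0356) stayed positive. The members most related to Lep were thus a receptor and a pair of interstitial markers.

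Pdgfra was not called with Lep: its slope was -0.00115 ± 0.012 (edgeR adjusted p = 0.935) and r was 0.00428, with a 95% interval from -0.0865 to 0.095. This rested on the Y term, the scaling and the covariates. Its slope was -0.0368 with no Y covariate, 0.0362 when scaled by total count alone and -0.119 with the stroma score (edgeR adjusted p = 0.00109, 0.0126 and 1.21e-21). The difference between the r of Pdgfra and Pdgfrb was -0.598 (permutation p = 1e-05), the largest of the 12 differences tested, so the 2 PDGF receptors parted over Lep. Icam1 (0.0183 ± 0.0105), Pi16 (0.0275 ± 0.0155), F3 (0.0146 ± 0.0146) and Dpp4 (-0.0251 ± 0.0145) were not called, with adjusted p of 0.102, 0.0973, 0.363 and 0.106. Dpp4 lay below Icam1 by -0.167 (permutation p = 0.00558) and below Pi16 by -0.159 (p = 0.00419). The differences between Dpp4 and F3 (-0.101, permutation p = 0.129), F3 and Icam1 (-0.0664, p = 0.258) and Cd34 and Ly6a (0.0879, p = 0.0802) did not pass. With Adgre1, Cd34 lay -0.105 below Ly6a (permutation p = 0.0222). Over the 12 differences the p-values are unadjusted, and none was recomputed without the library of mouse DO283. Adgre1 and Lep correlated with each other at 0.475, so their relations to the members are not independent.

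**Figure D4:**
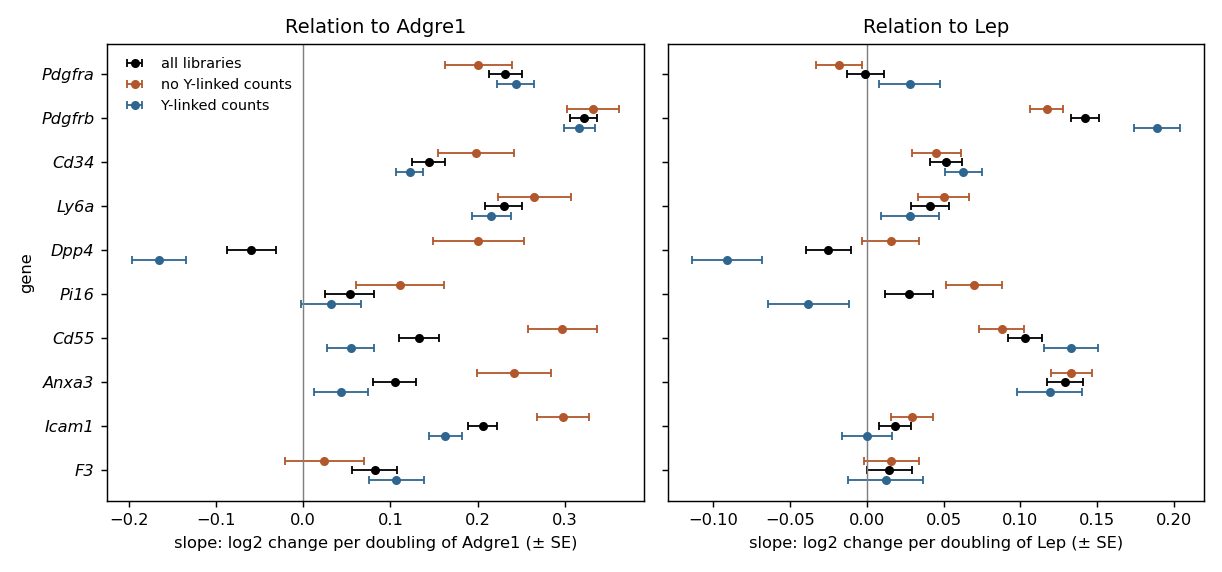
Slope of each gene on Adgre1 (left) and on Lep (right), as log2 change per doubling, in all libraries (black), in those without (orange) and in those with Y-linked counts (blue). Bars are SE. On Adgre1, Dpp4 lies at 0.201 without and -0.166 with Y-linked counts, and on Lep, Pdgfrb lies farthest to the right.

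Some of these relations differed between the 2 sets of libraries. Of the 10 members, 4 had an interaction with Adgre1 that was called, all negative (edgeR), where 51.4% of all genes were called and 28.9% were negative. The largest was that of Dpp4, -0.367 ± 0.0596 (adjusted p = 1.76e-08): its slope on Adgre1 was 0.201 ± 0.0518 without and -0.166 ± 0.0311 with Y-linked counts, and its r 0.249 and -0.3. Without the library of mouse DO283 the interaction was -0.335 ± 0.0594 (adjusted p = 2.43e-07).

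The mesothelial genes moved in the same way. Their score correlated with Adgre1 at 0.206 and -0.299 in the 2 sets, and 7 of 8 genes had a called negative interaction. So did 6 of 6 epithelial, 9 of 10 endothelial, 7 of 10 mural, 7 of 10 adipocyte and 6 of 8 T cell genes, whose part in the interaction of Dpp4 was not tested. With that score and its own interaction as covariates, the interaction of Dpp4 with Adgre1 was -0.119 ± 0.04 (edgeR adjusted p = 0.00985) and its interaction with Lep, -0.107 ± 0.0297 before (adjusted p = 0.00154), was -0.0261 ± 0.0197 (adjusted p = 0.303). Without mouse DO283 the interaction with Lep was -0.0734 (adjusted p = 0.0363).

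**Figure D5:**
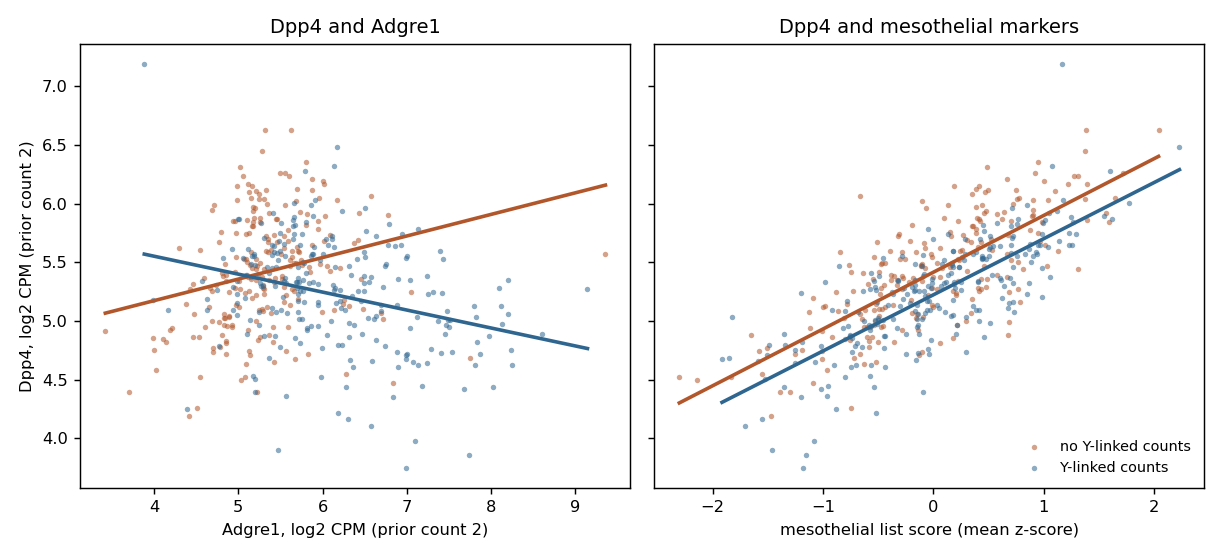
Dpp4 against Adgre1 (left) and against the mesothelial list score (right), each point a library, with a straight line per set of libraries. Against Adgre1 the lines cross (r = 0.249 without, -0.3 with Y-linked counts), and against the mesothelial score they run side by side (0.754 and 0.771).

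Cd55, Anxa3 and Icam1 were related to Adgre1 more steeply in the libraries without Y-linked counts. Their slopes there were 0.297 ± 0.0396, 0.242 ± 0.0427 and 0.298 ± 0.0295, against 0.0545 ± 0.0272, 0.0434 ± 0.0305 and 0.163 ± 0.0191. The interactions were -0.243, -0.199 and -0.135 (edgeR adjusted p = 5.26e-06, 8.45e-04 and 6.13e-04). With the mesothelial score and its interaction added, that of Anxa3 was -0.116 (edgeR adjusted p = 0.06). The receptors showed no such difference that passed: Pdgfrb had slopes of 0.333 and 0.317 (interaction -0.0158, adjusted p = 0.726), and Pdgfra 0.201 and 0.244 (0.0431, adjusted p = 0.42). With the mesothelial terms that of Pdgfra was 0.106 (adjusted p = 0.0312).

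With Lep, 3 members had a called interaction, where 44.6% of all genes did. Pdgfrb was steeper in the libraries with Y-linked counts (0.189 ± 0.015 against 0.117 ± 0.0108, interaction 0.072 ± 0.0179, edgeR adjusted p = 3.65e-04). Pi16 was steeper in those without (0.0699 ± 0.0182 against -0.0382 ± 0.0262, interaction -0.108 ± 0.0314, adjusted p = 0.00247). Neither set of libraries is a group given by the labels.

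Mouse number and library number, the only orders in the labels, were not called with any member in edgeR with the Y term. The smallest adjusted p was 0.111 for mouse number (Dpp4, -0.0331 log2 units per 100 numbers), where 15.2% of all genes were called, and 0.394 for library number, where 0.424% were. Of the 10 members, 3 and 2 had an unadjusted edgeR p under 0.05, as did 5120 and 2169 of the 18380 genes. Limma likewise called no member for either number, with 4 and 3 members under 0.05 unadjusted, and 4565 and 1556 of all genes. Low unadjusted p-values were thus common for any gene. With no Y term, edgeR called 4 members against mouse number (smallest adjusted p = 0.00692), where 26.3% of all genes were called.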

How the data were processed

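RNA sequencing of visceral adipose tissue from 468 Diversity Outbred mice was analysed, 1 library per mouse. Per the labels, poly(A) libraries were made with a KAPA mRNA HyperPrep kit after an ERCC spike-in. The authors aligned the reads of each pair as single ends to a transcriptome joining the founder strains, and EMASE, run by GBRS, gave the expected counts per gene that they deposited. Reads shared by several transcripts are divided by estimation, so counts of near-identical or overlapping genes are uncertain. The authors had dropped transcripts that fell under 1 read in many of the samples. In the second deposited table the values are on a log2 scale, made with DESeq2's variance stabilizing transformation. The submitters' processing notes name DESeq2 and GRCm38. The versions of EMASE and GBRS were not given in the sources used here, nor was whether counting used strand. Positions of all members equal those of GENCODE M21 on GRCm38.

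Genes with at least 10 counts in 50% of libraries were kept (18380 of 23180). Counts were rounded to whole numbers for edgeR 4.0.16 (quasi-likelihood test, TMM factors from 0.579 to 1.36) and DESeq2 1.42.0. CPM used unrounded counts and TMM, and log2 CPM a prior count of 2, for limma 3.58.1, correlations and list scores. Each fit ran over all genes past the filter, with an indicator of counts from 4 Y-linked genes (241 libraries with and 227 without) as covariate and Benjamini-Hochberg adjustment over all of them at 0.05. The SE of an edgeR slope is its size divided by the square root of the F statistic. Pearson's r and Spearman's rho are of residuals after the Y indicator, with two-sided tests of 100000 permutations within the 2 sets of libraries and 95% intervals by Fisher's transformation. For the 20 relations with Adgre1 and Lep the adjusted p is that of edgeR. A difference between r of 2 members was tested by permuting the difference of their z-scored residuals. Each library is a separate mouse, and p-values measure the spread between these libraries. The study also fitted generation and wave, and kinship in its genetic mapping, and it regressed out sequencing batch as a random effect. None of these was fitted here, so neither relatedness between mice nor batch was modelled. Total counts from 35298813 to 137760410 left no member below 353 counts in any library, so counting error is small beside the spread between mice.

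The members, the marker lists (stroma, interstitial, committed, regulatory, mural, endothelial, mesothelial, epithelial, macrophage, T cell and adipocyte) and the tests were chosen with earlier results of these data known. Elf3 of the epithelial list did not pass the filter. Named are all members, for each the 3 genes with the highest and the 1 with the lowest r among genes averaging 1 CPM or more, the 2 genes of a list with the highest mean CPM, and the genes with the highest and lowest r in a list described against a member. The gene with the lowest r to Pdgfrb is not reported here. Csf1r and the genes near a member were named after their values were seen. Promoter windows are of RefSeq on GRCm38.p6 and were found for 7 of the 10 members. Alternatives covered normalization, filter, tool, prior count, covariates and subsets of libraries. Those without mice DO283, DO360 and DO405, without DO283 alone, and with the mesothelial score were added after seeing the data. The fitting scripts were tested on simulated data. Python 3.11.15 was used for correlations and figures.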

Additional observations from a re-analysis of the deposited data

Results flagged for a closer look

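For 7 relations the slope differed between the libraries with and those without Y-linked counts by a test of the interaction (edgeR, adjusted over all genes), with values given as the slope with minus the slope without such counts. On Adgre1 they were Dpp4 (-0.367), Cd55 (-0.243), Anxa3 (-0.199) and Icam1 (-0.135). Dpp4 alone among them had slopes of opposite sign in the 2 sets, both called (adjusted p = 3.05e-04 and 5.04e-07). On Lep they were Pdgfrb (0.072), Dpp4 (-0.107) and Pi16 (-0.108). All genes were called in 51.4% of cases for Adgre1 and 44.6% for Lep, so such a difference is common among genes.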

How the results depend on the processing

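No paired analysis was possible because the libraries form 1 group with 1 library per mouse. Among the recomputed slopes on Adgre1 and Lep, 23 were newly called, 13 lost the call and 21 turned sign, and all others kept direction and call. Members called against Lep numbered 5, and 9 with total count only, 10 with no Y covariate and 8 with the stroma score as covariate. In the same order, 13964, 13680, 14698 and 11842 of all 18379 genes tested were called. A call was thus common for any gene in each of these fits. Slopes on Adgre1 that turned with the stroma score were Cd34 (-0.0928), Pi16 (-0.0943), Cd55 (-0.0759) and Anxa3 (-0.0541), and those on Lep were Cd34 (-0.0568), Ly6a (-0.0398), Pi16 (-0.0371), Icam1 (-0.0649) and F3 (-0.0215). Dpp4 on Adgre1 turned with total count only (0.0553), in libraries without Y-linked counts (0.201) and with Csf1r in place of Adgre1 (0.0438), and on Lep with total count only (0.0107) and in libraries without Y-linked counts (0.0154). Its call on Adgre1 was also lost with DESeq2 size factors (-0.0575, edgeR adjusted p = 0.0512), in limma (-0.0443, adjusted p = 0.132, and -0.0434, adjusted p = 0.131, on the deposited log2 values) and when the 10% of libraries lowest in total count were left out (-0.0249, edgeR adjusted p = 0.436), and kept in DESeq2 (-0.0589, adjusted p = 0.0398). Pdgfra on Lep, not called and near 0, turned with total count only (0.0362), in limma (0.0011 with either prior count, 6.7e-04 on the deposited log2 values), in libraries with Y-linked counts (0.0278) and with the mesothelial score (0.00332). Pi16 on Lep turned in libraries with Y-linked counts (-0.0382). Interactions that were not called turned in limma for Pdgfrb (0.00195) and Ly6a (0.00579) with Adgre1 and F3 (0.00662) with Lep, and with the mesothelial terms for Cd34 with Adgre1 (0.0133) and Anxa3 with Lep (0.0212). Of the 45 pairs, 22 were called in libraries with Y-linked counts and 22 with the stroma score removed, against 34. For the fits with 22 called pairs, the share of all genes called is not given here. The drop from 34 is therefore not read as particular to the members. In libraries without Y-linked counts the slopes of Pdgfrb with Dpp4 (0.331) and Dpp4 with F3 (0.0512) were positive. Over 5 blocks of consecutive mouse or library numbers, r turned in the lowest block for F3 with Adgre1 (-0.0787), Pi16 with Lep (-0.0945 by mouse number, -0.106 by library number) and Icam1 with Lep (-0.207, -0.114). Against mouse number, 15.2% of genes and 0 members were called, and 26.3% of genes and 4 members with no Y covariate. Against library number, edgeR called 0.424% of genes and 0.958% with no filter on low counts, while limma called 0 genes with 1556 at an unadjusted p under 0.05. The cause of these changes was not tested. Depth limits none of the members, which were above 0 in every library, but the labels hold no sex or batch that could be fitted.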

Other observations

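Genes next to a member on the chromosome were read after the other results, as a description over all libraries and with the means of the 2 library sets removed. Within 1 Mb, the highest r of Pdgfrb was 0.733 with Csf1r, the receptor gene of macrophages, 15.5 kb away, so the alternative that puts Csf1r in place of Adgre1 uses a neighbour of Pdgfrb. Icam1 was at 0.578 with S1pr2, a receptor for sphingosine 1-phosphate, 39.2 kb away, and Ly6a at 0.535 with its relative Ly6e, 35 kb away. F3, which followed few genes, was at 0.358 with A730020M07Rik, 80.1 kb away, the third highest of all its correlations. Cd34 was at 0.344 with Gm16897, an antisense gene that overlaps it and whose reads cannot be told apart from its own without strand. For Dpp4 the highest neighbour was the virus sensor Ifih1 (0.316), 183.6 kb away, and for Anxa3 it was Fras1 (0.359), 8.6 kb away. Over all neighbours within 1 Mb, the median r ran from -0.116 for Anxa3 (7 genes) to 0.0906 for Pdgfrb (33 genes).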
